A study of Rattus norvegicus with 81 samples.

Results

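The lining of blood vessels was followed in the rat mammary gland through 10 genes whose transcripts mark blood vessel endothelium: Tek, Tie1, Flt1, Robo4, Cdh5, Cldn5, Esam, Emcn, Vwf and Egfl7. They were chosen as genes known to mark this cell type, with earlier results of these data known, and each was read from the array's transcript cluster (the probes assigned to a single transcript locus) that carried that gene symbol alone. All 10 were found among 18166 genes with a single-symbol cluster, and each had 1 such cluster.

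Endothelial cells form the inner wall of every vessel. They hold to each other through VE-cadherin and claudin junctions, and they respond to vascular endothelial growth factors and angiopoietins through receptor tyrosine kinases. In the mammary gland the vessels run through a fat pad in which the epithelial ducts grow at puberty, and the capillary bed serves the milk-producing epithelium during lactation.

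Diethyl phthalate (DEP, a plasticiser), methyl paraben (MPB, a preservative), triclosan (TCS, an antibacterial agent) or the olive oil vehicle alone (OIL) had been given to female Sprague-Dawley rats, and RNA of the 5th caudal mammary glands was hybridised to Affymetrix whole-transcript arrays. Each agent was given in 4 short windows. In the first, dams were gavaged on gestation days 1 to 20 (GD1-20), and in the second pups took the agent in milk on postnatal days 1 to 20 (PND1-20). One female pup per litter was killed at PND 21 in both. The third window was PND21-41, by milk and then by gavage, with killing at PND 42, and the fourth was PND42-62, by gavage, with killing at PND 63. TCS and OIL were also given from PND 1 to 145 to rats that were mated and killed at the end of lactation, on PND 146. There were 81 arrays in 18 groups: 5 per short-window group, except 4 for TCS PND1-20 and 3 for TCS PND21-41 and TCS PND42-62, and 3 for each lactation group. Age and exposure window changed together, so a difference between ages also compares exposure windows. All values are log2 units of robust multi-array average (RMA) expression, each on its own cluster's scale, so levels of different genes were not ranked against each other. MPB, TCS and OIL values came from 1 table of 55 arrays, and DEP values were compared with OIL in a separate table of 40 arrays that held 9 of the 10 genes (not Robo4). That second table is a subset of the clusters, each with an SD of at least 0.15 over its arrays, so its 9 genes are those that were in the subset. No filter on low values was applied to the 55-array table.

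The promoters of these genes were searched for letters bound by endothelial regulators. Promoters from RefSeq (GRCr8, 250 bases before to 50 after the start) were matched for 6 genes: Cldn5, Tie1, Flt1, Emcn, Egfl7 and Robo4, with 7 promoters in all. Cdh5, Tek, Vwf and Esam are named only. A core bound by ETS factors, a family of endothelial regulators, was searched as AGGAAG or CGGAAG on either strand, and it occurred in 5 of 7 promoters against 45.5% of 33469 promoters of all genes. The GATA letters AGATAA, searched on both strands with no overlap with the ETS letters, occurred in 0 of 7, against 11.6% of all. The 4 promoters below are shown because Cldn5 and Tie1 are among the genes that fell between PND 21 and PND 42 in OIL glands, and Flt1 and Emcn are among those whose differences did not pass the test; capitals mark the ETS letters.

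Cldn5 promoter, chr11:95718549-95718848, minus strand: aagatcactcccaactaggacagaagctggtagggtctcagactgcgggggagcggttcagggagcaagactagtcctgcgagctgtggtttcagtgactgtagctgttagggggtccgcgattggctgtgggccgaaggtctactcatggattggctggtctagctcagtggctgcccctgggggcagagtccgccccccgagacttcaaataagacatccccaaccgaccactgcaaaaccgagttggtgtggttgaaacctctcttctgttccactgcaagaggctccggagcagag
Tie1 promoter, chr5:137304932-137305231, minus strand: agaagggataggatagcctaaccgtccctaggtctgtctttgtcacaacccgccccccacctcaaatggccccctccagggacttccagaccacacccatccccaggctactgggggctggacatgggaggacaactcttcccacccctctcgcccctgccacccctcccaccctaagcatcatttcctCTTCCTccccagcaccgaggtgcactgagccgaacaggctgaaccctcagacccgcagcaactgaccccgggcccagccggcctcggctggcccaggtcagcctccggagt
Flt1 promoter, chr12:12333180-12333479, plus strand: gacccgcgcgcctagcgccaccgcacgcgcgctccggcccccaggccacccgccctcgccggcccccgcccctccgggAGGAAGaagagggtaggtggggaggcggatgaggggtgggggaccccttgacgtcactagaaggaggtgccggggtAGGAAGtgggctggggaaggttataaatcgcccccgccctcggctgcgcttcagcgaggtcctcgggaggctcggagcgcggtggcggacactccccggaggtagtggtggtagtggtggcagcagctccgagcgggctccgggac
Emcn promoter, chr2:228564289-228564588, plus strand: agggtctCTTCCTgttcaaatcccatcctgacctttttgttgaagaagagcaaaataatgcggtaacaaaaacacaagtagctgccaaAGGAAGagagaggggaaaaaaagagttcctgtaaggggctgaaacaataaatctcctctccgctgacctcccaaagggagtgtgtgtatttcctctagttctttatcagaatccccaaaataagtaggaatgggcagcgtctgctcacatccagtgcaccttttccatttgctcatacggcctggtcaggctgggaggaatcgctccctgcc

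The Flt1 and Emcn promoters each held 2 matches, the Tie1 promoter 1 and the Cldn5 promoter 0. A match is a run of letters and was not tested as a binding site.

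Levels of other cell types were read in the same arrays. Adipocyte transcripts (Adipoq 11.83 to 13.41, Plin1 10.56 to 13.05) and epithelial transcripts (Krt18 6.64 to 10.41, Epcam 4.16 to 11.29) were present in the 55 arrays, as the tissue label states. The endothelial markers Pecam1, Kdr and Eng were not among the genes with a single-symbol cluster, so no level is given for them. In bulk tissue, fewer endothelial cells and less endothelial RNA per cell cannot be told apart. A skeletal muscle score (the mean of muscle markers, each gene centred on its mean) was above 1 in 7 of 55 arrays, in 7 of the 40 DEP and OIL arrays and in 1 of 6 lactation arrays. The labels give batches 1 and 2, present in groups of 5 as 3 and 2 arrays; TCS PND1-20 had 3 and 1, and TCS PND21-41, TCS PND42-62 and the lactation groups had batch 1 alone. In every list of array values below, batch 1 comes first, so the last 2 of 5 values are batch 2. In the 55 arrays, batch 2 minus batch 1 was -0.89 for Egfl7, -0.72 for Esam, -0.49 for Vwf, -0.25 for Robo4, 0.21 for Cdh5 and 0.71 for Cldn5, and 6 of 10 genes differed between batches in limma at an adjusted p under 0.05, against 56.6% of all genes. Batch was therefore a term in each fit below, except that of the lactation arrays. In the DEP and OIL table no gene of 6762 differed between batches (limma; the largest difference among the 9 genes was -0.05, for Egfl7), although its OIL arrays are those that lie apart by batch in the 55-array table. How that table came to hold no batch difference is not given in the sources used here.

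With all arrays, each of the 10 genes had its highest group mean in OIL glands after GD1-20, both in the 55-array table and, for 9 genes, in the DEP and OIL table. For 10 of 10 genes in the 55-array table and 5 of 9 in the DEP and OIL table, the gap to the next group was smaller than the SD of the OIL group. The lowest mean was that of MPB PND42-62 for 7 genes, of MPB PND21-41 for Flt1 and Emcn, and of TCS PND42-62 for Cldn5. These means and SDs hold the split between batches, and the 2 TCS groups with batch 1 alone carry none of it, so the order was also read from batch 1 arrays, 3 in each group. There MPB after GD1-20 had the highest mean for 8 of 10 genes and OIL after GD1-20 for Cldn5 and Egfl7. The lowest mean was that of MPB PND21-41 for 5 genes, of MPB PND42-62 for Cdh5, Vwf and Cldn5, of TCS PND42-62 for Esam and of OIL PND42-62 for Tie1. The order of the groups thus changed with the batches read. Of 110 gaps between neighbouring group means, 3 exceeded the larger of the SDs of the groups beside them with all arrays and 18 did in batch 1, against 7 of 63 in the DEP and OIL table. The span between the highest and the lowest group mean ran from 0.37 to 1.12 with all arrays and from 0.63 for Emcn to 1.24 for Esam in batch 1.

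The first comparison, PND 42 against PND 21 in OIL glands, asks what happened to the vascular genes between the suckling age of PND 21 and PND 42 with no chemical given. All 10 genes were lower at PND 42 than the mean of both PND 21 groups, against 47.9% of all genes, with a median difference of -0.36 over the 10 and 0.01 over all genes. In limma with Benjamini-Hochberg adjustment over 18166 genes, 7 of 10 fell at an adjusted p under 0.05: Tek, Tie1, Cdh5, Cldn5, Esam, Vwf and Egfl7. Of all genes, 10.5% were called lower and 12% higher. The p-values measure the spread between these arrays.

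Tek, the receptor for angiopoietins that steadies the vessel wall, measured 10.38, 10.81, 10.64, 11.12 and 10.92 after GD1-20 and 10.34, 10.46, 10.37, 10.22 and 10.51 after PND1-20, both at PND 21, then 10.18, 10.08, 10.15, 10.54 and 10.06 at PND 42 and 10.43, 10.11, 10.12, 10.16 and 10.30 at PND 63. All PND 42 arrays but one, at 10.54, lay below all 10 PND 21 arrays, and that one is an array with a skeletal muscle score above 1. The other PND 42 array with such a score, at 10.18, lay with the rest of its group. The difference was -0.38 (SE 0.10, adjusted p = 0.00842) in limma, and -0.36 within batch 1 and -0.40 within batch 2. Tie1, a related receptor that acts together with Tek, measured 9.81, 10.01, 9.93, 10.09 and 9.89 after GD1-20 and 9.72, 9.78, 9.62, 9.82 and 9.86 after PND1-20 at PND 21, then 9.63, 9.31, 9.28, 9.42 and 9.61 at PND 42 and 9.45, 9.20, 9.08, 9.29 and 9.53 at PND 63. The PND 42 and PND 21 arrays overlapped by a single array, at 9.63 against a lowest PND 21 value of 9.62. The Tie1 difference was -0.40 (SE 0.07, adjusted p = 0.000728) in limma and -0.40 within each batch. Flt1, a receptor that binds vascular endothelial growth factor and limits its action, averaged 9.63 ± 0.13 at PND 42, against 9.89 ± 0.18 after GD1-20 and 9.74 ± 0.21 after PND1-20 at PND 21 (SD, n = 5 each). Its difference of -0.18 (SE 0.10, adjusted p = 0.198) did not pass the limma test, while with skeletal muscle and B cell scores as covariates it was -0.43 (adjusted p = 0.0226) and passed. Robo4, an endothelial receptor of the roundabout family that limits vessel leakage in mice, averaged 8.41 ± 0.14 at PND 42, against 8.64 ± 0.22 after GD1-20 and 8.47 ± 0.22 after PND1-20 (SD, n = 5 each). Its limma difference was -0.14 (SE 0.09, adjusted p = 0.266). Of the 4 receptors, the angiopoietin pair fell and the other pair did not pass the test.

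The 3 junction genes all fell. Cdh5, which encodes VE-cadherin, the adherens junction protein of endothelium, measured 11.33, 11.50, 11.41, 11.87 and 11.54 after GD1-20 and 11.07, 11.21, 11.26, 11.39 and 11.44 after PND1-20 at PND 21, then 11.10, 10.82, 10.88, 11.33 and 11.12 at PND 42 and 10.97, 10.80, 10.82, 10.96 and 11.14 at PND 63. Both batch 2 arrays of PND 42 lay below all 4 batch 2 arrays of PND 21, while batch 1 arrays overlapped, with 11.10 at PND 42 against 11.07 at PND 21. The difference was -0.35 (SE 0.07, adjusted p = 0.000997) in limma, with -0.36 within batch 1 and -0.33 within batch 2. Cldn5, the main tight junction claudin of endothelium, had the largest difference of the 10. It measured 8.83, 9.17, 9.02, 9.41 and 9.25 after GD1-20 and 8.39, 8.19, 8.29, 9.39 and 9.50 after PND1-20 at PND 21, then 8.31, 7.80, 7.95, 8.74 and 8.77 at PND 42 and 8.43, 7.87, 7.77, 8.58 and 9.10 at PND 63. Pooled over batches the ages overlapped, while both batch 2 arrays of PND 42 lay below all 4 of PND 21. Within batch 1 the ages overlapped, with 8.31 at PND 42 against 8.19 at PND 21. The limma difference was -0.63 (SE 0.13, adjusted p = 0.00225), a level 0.65 times that of PND 21, and it was -0.63 within each batch. Esam, an adhesion molecule of endothelial tight junctions, measured 10.41, 10.88, 10.69, 10.16 and 9.94 after GD1-20 and 10.20, 10.47, 10.66, 9.69 and 9.90 after PND1-20 at PND 21, then 10.27, 9.91, 10.08, 9.61 and 9.43 at PND 42 and 10.04, 9.69, 9.58, 8.79 and 9.16 at PND 63. In each group its batch 1 values lay above its batch 2 values, and within batch 2 both PND 42 arrays lay below all PND 21 arrays. Within batch 1 the ages overlapped, with 10.27 at PND 42 against 10.20 at PND 21. The Esam difference was -0.44 (SE 0.10, adjusted p = 0.00455) in limma.

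Emcn, endomucin, is a sialic acid rich surface protein of capillaries and veins. It measured 10.60, 11.06, 10.82, 11.30 and 11.21 after GD1-20 and 10.58, 10.93, 11.04, 10.65 and 10.84 after PND1-20 at PND 21, then 10.74, 10.63, 10.70, 11.08 and 10.64 at PND 42 and 10.89, 10.82, 10.65, 10.81 and 10.92 at PND 63. One PND 42 array, at 11.08, stood above the other 4 of its group and was also an array with a high muscle score, and the group's other array with a high muscle score, at 10.74, did not stand apart. The limma difference of -0.15 (SE 0.10, adjusted p = 0.36) did not pass the test. With skeletal muscle and B cell scores as covariates the difference was -0.48 (adjusted p = 0.0045) and passed.

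Both genes for secreted products fell. Vwf encodes von Willebrand factor, which is stored in endothelial granules and tethers platelets to damaged vessels, and it averaged 8.87 ± 0.25 at PND 42, against 9.39 ± 0.34 after GD1-20 and 9.09 ± 0.27 after PND1-20 (SD, n = 5 each). The 3 batch 1 arrays of PND 42 lay below all 6 batch 1 arrays of PND 21, and the limma difference was -0.37 (SE 0.08, adjusted p = 0.00162). Egfl7, a protein deposited around growing vessels, measured 10.25, 10.41, 10.34, 9.43 and 9.27 after GD1-20 and 9.76, 9.91, 9.90, 8.74 and 9.07 after PND1-20 at PND 21, then 10.08, 9.69, 9.78, 8.78 and 8.98 at PND 42 and 10.03, 9.64, 9.76, 9.02 and 9.14 at PND 63. Within each batch, the PND 42 arrays lay below those after GD1-20 and overlapped those after PND1-20. The share of all genes whose ages lay apart within a batch is not given, here or for the junction genes. The Egfl7 difference was -0.25 (SE 0.08, adjusted p = 0.0394) in limma. These differences in OIL glands depended on the handling of batch and of the PND 21 groups. Without the batch term 3 of 10 genes passed, and with PND1-20 glands alone as the PND 21 reference 1 of 10 passed, with a median of -0.20, while with GD1-20 glands alone the median was -0.49. Shares of all genes called in these alternative fits are not given here. Without those shares, a loss of calls in the 10 genes is not set apart here from one over all genes.

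**Figure D1:**
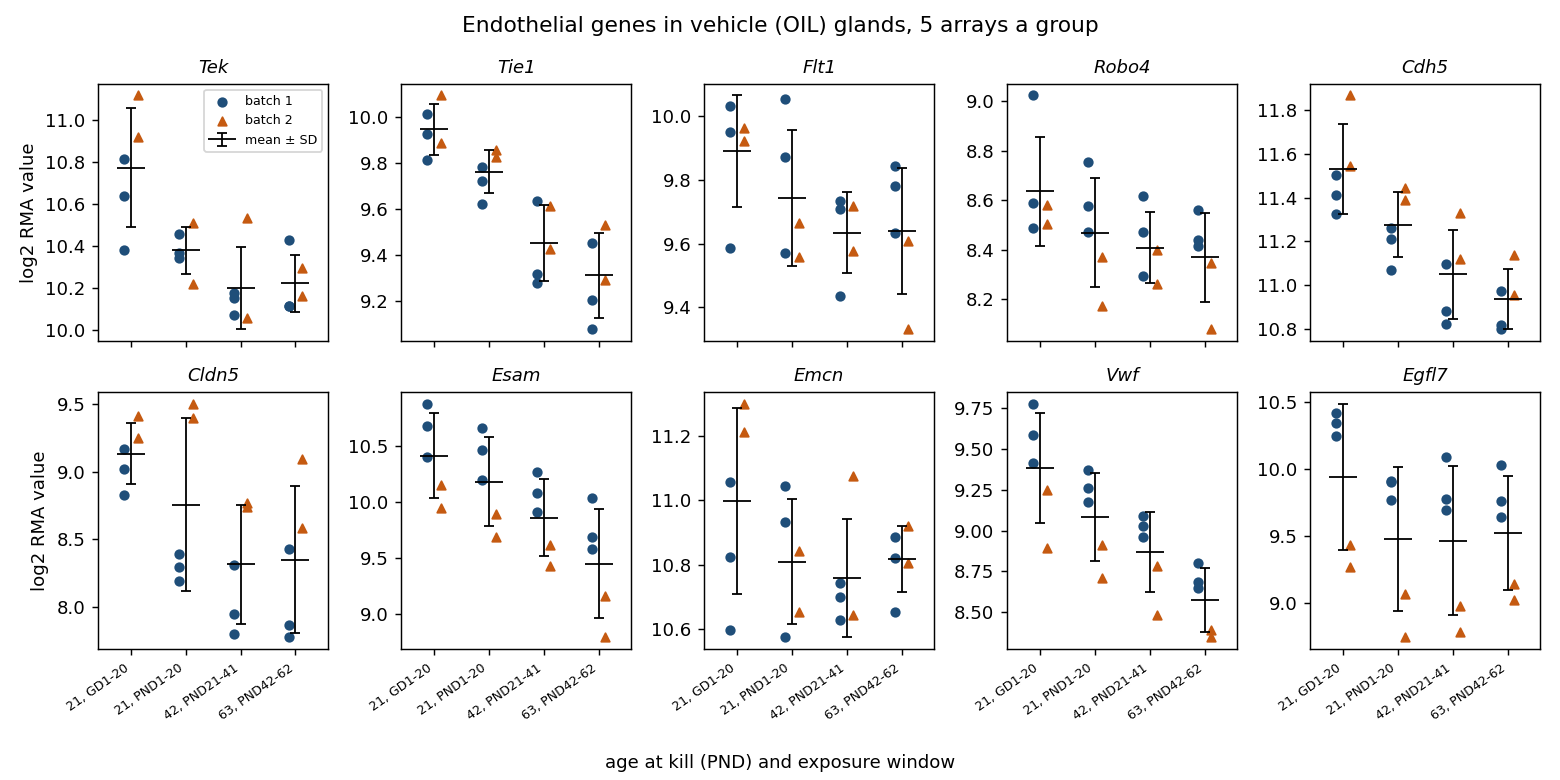
Log2 expression of each of the 10 genes in OIL glands, by group from PND 21 (after GD1-20 and after PND1-20) to PND 42 and PND 63; each point is 1 array, batches are marked, and bars are group means. The group means of Cldn5, Esam, Tie1, Tek, Cdh5 and Vwf are lower at PND 42 and PND 63 than in both PND 21 groups, single arrays of the ages overlap, Robo4 and Emcn show the smallest shifts at PND 42, and Egfl7, Esam and Cldn5 show the widest gaps between batches.

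The same comparison in glands of chemically exposed rats uses other animals at each age, and no control array is shared between treatments. In DEP glands 9 of 9 genes were lower at PND 42 than at PND 21 (against 48.1% of 6762 genes), with a median of -0.45, and 8 fell in limma, Flt1 (-0.40) included, the exception being Emcn; 13.6% of all genes were called lower. In MPB glands 10 of 10 were lower (52% of all genes), with a median of -0.51, and 7 fell (limma; 4.18% of all genes), the exceptions being Flt1, Emcn and Robo4. In TCS glands 8 of 10 were lower (50.6% of all genes), with a median of -0.29, and Cdh5, Cldn5, Esam and Egfl7 fell (limma; 4.71% of all genes). With all arrays and the batch term, these 4 genes were called lower in OIL, DEP, MPB and TCS glands alike, as were 3.58% of the 6762 genes tested in all of them. Emcn was called in none of these fits, but in batch 1 arrays of MPB alone it differed by -0.50 (limma, adjusted p = 0.0402).

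Cldn5 gives an example across treatments. In DEP glands it measured 8.42, 8.12, 8.15, 7.96 and 8.14 at PND 42, against 8.999, 8.995, 7.96, 8.39 and 8.90 after GD1-20 and 8.98, 8.89, 9.14, 8.99 and 9.06 after PND1-20 at PND 21. In MPB glands the values were 8.32, 7.41, 8.47, 8.60 and 9.02 at PND 42, against 8.51, 8.67, 8.67, 9.60 and 9.04 after GD1-20 and 8.50, 8.50, 8.92, 9.75 and 9.51 after PND1-20. In TCS glands they were 8.10, 8.25 and 8.21 at PND 42, against 8.77, 8.75, 8.72, 9.19 and 9.20 after GD1-20 and 8.72, 8.66, 8.83 and 9.20 after PND1-20. All TCS arrays of PND 42 lay below all TCS arrays of PND 21, and the other treatments' groups overlapped. The limma differences of Cldn5 were -0.67 (SE 0.16, adjusted p = 0.00403) in DEP, -0.60 (SE 0.16, adjusted p = 0.0256) in MPB and -0.55 (SE 0.08, adjusted p = 0.000807) in TCS glands. Cdh5 differed by -0.47 (SE 0.13, adjusted p = 0.00892), -0.46 (SE 0.14, adjusted p = 0.0491) and -0.34 (SE 0.09, adjusted p = 0.0305) in DEP, MPB and TCS glands, and in TCS glands Cdh5, Tek and Cldn5 did not overlap between the ages, which held for 2.3% of all genes in that direction. In DEP glands Tek differed by -0.45 (SE 0.15, adjusted p = 0.0284) and Tie1 by -0.39 (SE 0.12, adjusted p = 0.0187), also in limma.

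Single arrays carried part of these counts. Leaving out each array in turn left between 6 and 7 genes called in OIL glands, 4 and 8 in DEP, 1 and 7 in MPB and 1 and 5 in TCS glands. Without DEP PND21-41 replicate 5 the DEP count was 4 and without replicate 1 of that group it was 5. The MPB count was 1 without MPB PND21-41 replicate 2, which held the lowest values of Cdh5, Tek, Tie1, Cldn5 and Robo4 among the 55 arrays, and it was 3 or 4 without any 1 of 9 other MPB arrays. In TCS glands the count was 1 without TCS PND21-41 replicate 1 and 2 without TCS GD1-20 replicate 2. With skeletal muscle and B cell scores as covariates 6 genes were called in OIL glands, 8 in MPB glands, 2 in TCS glands and 0 of 9 in DEP glands (limma). The median in DEP glands was -0.42 in that fit, close to the -0.45 without covariates. Without the batch term 1 gene was called in MPB glands. For these alternative fits the share of all genes called is not given here. The MPB median was -0.75 within batch 1 and -0.10 within batch 2.

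**Figure D2:**
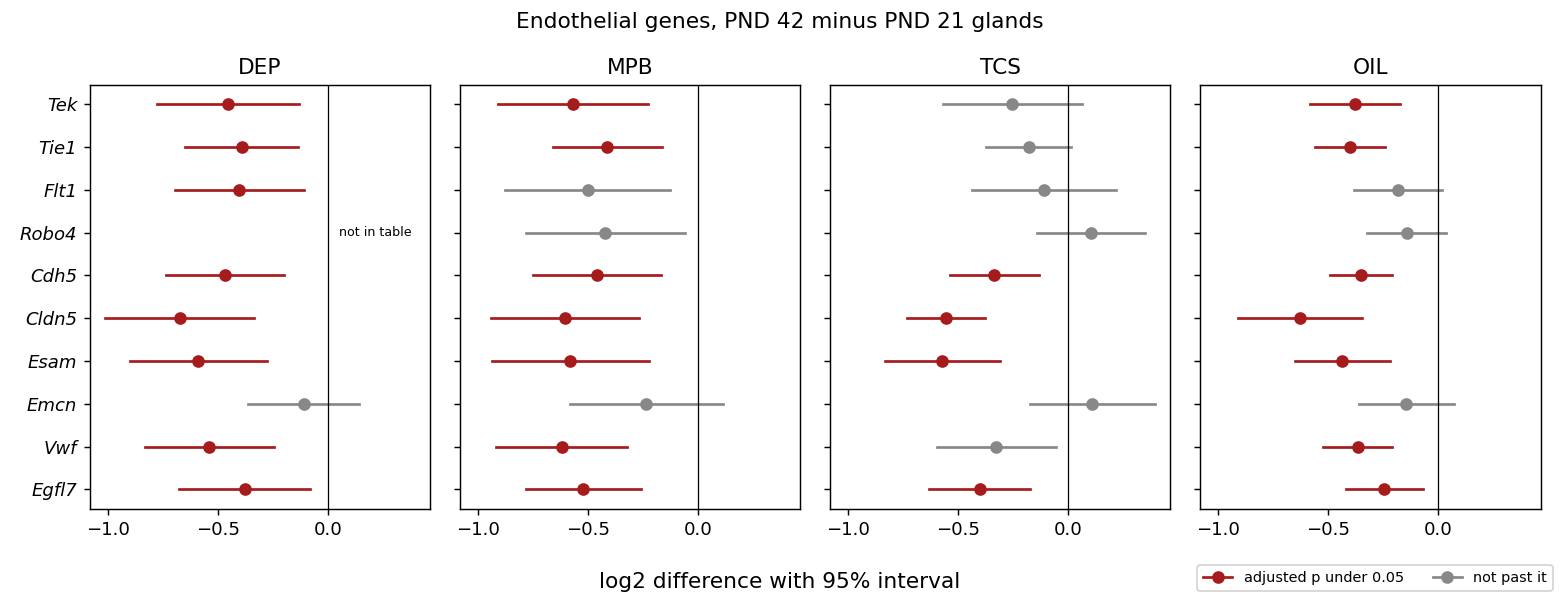
Log2 difference between PND 42 and PND 21 for each of the 10 genes in DEP, MPB, TCS and OIL glands, with 95% confidence intervals from limma; points left of the line at 0 are lower at PND 42. The median differences were -0.45, -0.51, -0.29 and -0.36, and Emcn, called in none of these fits, lies at -0.11, -0.24, 0.11 and -0.15.

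Other genes of the vascular system, taken from lists of ligands, receptors, junction and surface genes and transcription factors, moved in both directions in OIL glands at PND 42. The counts below are of genes called by limma, beside 12% of all genes called higher and 10.5% called lower. Of 20 ligands, 6 rose and 3 fell. Among those that rose were Vegfd (1.03) and Vegfc (0.64), growth factors for lymphatic vessels, and Slit2 (0.998), a ligand of roundabout receptors. Those that fell were Vegfa (-0.76), the chief growth factor for blood vessels, Vegfb (-0.47) and Dll4 (-0.77), the Notch ligand of sprouting tip cells. Of 12 other receptors 5 fell and 0 rose, led by S1pr1 (-1.12), the sphingosine 1-phosphate receptor of endothelium and lymphocytes, and Calcrl (-0.53), the receptor subunit for adrenomedullin. Of 21 junction and surface genes 4 rose: the connexin gene Gja1 (1.94), Podxl (0.68), the sialomucin gene Cd34 (0.38) and Selp (0.28), which encodes the leukocyte adhesion molecule P-selectin. The 5 that fell were Icam2 (-0.76), Cav1 (-0.52), the nitric oxide synthase gene Nos3 (-0.42), Cd93 (-0.27) and Mmrn2 (-0.23). Podxl, which encodes the sialomucin podocalyxin, also rose in DEP (0.68) and TCS glands (0.86). Of 19 transcription factors 11 fell and 1 rose. Ets1 (-1.47), Meox2 (-0.87), Fli1 (-0.70) and Klf2 (-0.55) were among those that fell, and Ets2 (0.53) rose. Ets1, Fli1, S1pr1 and Klf2 are also expressed by lymphocytes. In all 4 treatments Slit2 and Gja1 were called higher, as were 7.31% of all genes, and Vegfa, Dll4, Calcrl, Cav1, Epas1, Erg and Meox2 were called lower; Erg, an ETS factor of endothelium, and Epas1, a hypoxia-regulated factor, differed by -0.48 and -0.67 in DEP glands, -0.59 and -0.69 in MPB glands and -0.34 and -0.46 in TCS glands.

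The makeup of the gland moved with age as well, and the counts of markers that rose or fell are again of genes called by limma. In OIL glands at PND 42, 14 of 16 luminal epithelium markers rose (median 1.46), 13 of 16 white adipocyte markers fell (-0.63), 12 of 12 B cell and lymph node markers fell (-1.49) and 8 of 9 T cell markers fell (-2.07). Of 10 markers of pericytes, the cells that wrap capillaries, 4 fell (median -0.18). Among lymphatic endothelium markers 1 rose and 0 fell (median -0.02). Of all genes in OIL glands, 12% were called higher and 10.5% lower. The summed level of the B cell markers, as the mean of centred values, lay from -1.72 to -0.00138 at PND 42, against -0.48 to 1.31 after GD1-20 and -1.43 to 1.21 after PND1-20. That of the luminal markers lay from 0.72 to 1.17 at PND 42, against -1.86 to -0.41 and -1.18 to 0.65, and that of the white adipocyte markers from -0.40 to 0.07, against -0.000219 to 0.63 and 0.33 to 0.70. White adipocyte markers were also called lower, and luminal markers higher, in DEP glands (11 and 14 of 16), MPB glands (13 and 14 of 16) and TCS glands (9 and 14 of 16). B cell markers were called lower in 1 of 12, 0 of 12 and 1 of 12 cases. The direction of the B cell markers not called there is not given here, so a lower B cell level in those glands is not excluded. Of all genes, 13.6%, 4.18% and 4.71% were called lower in DEP, MPB and TCS glands, and the shares called higher are not given here. Skeletal muscle and B cell scores entered as covariates in the fits given above, and no fit held scores of the other cell types. The part of tissue makeup as a whole in the lower endothelial values was not tested.

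Between PND 63 and PND 42 no endothelial gene passed the limma test in any treatment. Leaving out OIL PND42-62 replicate 1 gave 1 called gene in OIL glands. There, with all arrays, 5 genes were higher and 5 lower (47.9% and 52.1% of all genes), the median was -0.02 and 2 genes had an unadjusted p under 0.05 (12.7% of all genes did), Vwf (-0.29, adjusted p = 0.127) and Esam (-0.41, adjusted p = 0.124 in limma); 0.782% of all genes were called. The median was 0.05 in DEP glands, with 0 of 9 called, 0 at an unadjusted p under 0.05 (10.5% of all genes) and 0.0887% of all genes called by limma. It was -0.12 in MPB glands, with 0 of 10 called, 0 at an unadjusted p under 0.05 (11.2%) and 0.308% of all genes called by limma. In TCS glands it was -0.10, with 0 of 10 called, 1 at an unadjusted p under 0.05 (4.33%) and 0.0055% of all genes called by limma. The 95% intervals of the 10 genes in OIL glands ran from -0.66 to 0.36, so differences of that size remain possible.

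The 2 OIL groups killed at PND 21 offer a measure of how far vehicle groups of 1 age can lie apart. All 10 genes were higher in OIL GD1-20 glands than in OIL PND1-20 glands, against 48.7% of all genes, with a median of 0.24. None passed the adjusted limma test and 5 had an unadjusted p under 0.05, against 6.80% of all genes, and 0.0055% of all genes were called. Egfl7 had the largest difference, 0.47 (SE 0.10, adjusted p = 0.254) in limma, from the array values given above. The median was 0.22 within batch 1 and 0.28 within batch 2.

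Each chemical was then set against OIL of the same window, which asks whether exposure changed the vascular genes. No endothelial gene passed the adjusted limma test in any of the 13 comparisons. The OIL arrays are shared by the comparisons of 1 window, so those comparisons are not independent of each other.

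After GD1-20 exposure the values ran below OIL for all 3 chemicals. In DEP glands 9 of 9 genes were lower than in OIL glands, against 52.9% of all genes, with a median of -0.34. Of the 9, 5 had an unadjusted p under 0.05 (limma), against 6.97% of all genes, 0 passed after adjustment, with a lowest adjusted p of 0.572, and 0% of all genes were called. Egfl7 measured 9.68, 9.97, 8.99, 9.14 and 9.32 in DEP glands, against 9.85, 9.99, 9.98, 9.86 and 9.73 in OIL glands. Cldn5 measured 8.999, 8.995, 7.96, 8.39 and 8.90 in DEP glands, against 9.01, 9.31, 9.21, 8.95 and 8.83 in OIL glands. For Egfl7 1 DEP array and for Cldn5 3 DEP arrays lay within the OIL range, and the others lay below it. The DEP median was -0.22 within batch 1, -0.38 within batch 2 and -0.22 without arrays of a muscle score above 1. In TCS glands 10 of 10 genes were lower than in OIL glands (49.5% of all genes), with a median of -0.27; 5 had an unadjusted p under 0.05 (6.80% of all genes), 0 passed in limma, and 0.0055% of all genes were called. Tie1 measured 9.60, 9.74, 9.52, 9.44 and 9.45 in TCS glands, against 9.81, 10.01, 9.93, 10.09 and 9.89 in OIL glands, and was the 1 gene of the 10 whose groups did not overlap (0.33% of all genes had all TCS arrays below), with a limma difference of -0.39 (SE 0.09, adjusted p = 0.723). Beside these values, 14 of 16 white adipocyte markers were lower and 15 of 16 luminal markers higher in DEP glands than in OIL glands (medians -0.16 and 0.48). In TCS glands 15 of 16 white adipocyte and 10 of 10 pericyte markers were lower (medians -0.25 and -0.23). These are some of the marker lists measured, not the same ones for each chemical. The other lists, and all lists in MPB glands, are not given here for this window. The part of the other cell types was not tested.

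In MPB glands after GD1-20, 10 of 10 genes were lower than in OIL glands (52.6% of all genes), with a median of -0.12, 1 gene at an unadjusted p under 0.05 (4.02% of all genes), 0 passing in limma and 0.0055% of all genes called. This direction did not hold within batches, where the median was 0.15 in batch 1 and -0.49 in batch 2. Flt1 measured 10.14, 10.08, 10.55, 9.33 and 9.34 in MPB glands, against 9.58, 9.95, 10.03, 9.96 and 9.92 in OIL glands, a difference of 0.40 in batch 1 and -0.61 in batch 2. Emcn measured 11.05, 11.11, 11.18, 10.55 and 10.34 in MPB glands, against 10.60, 11.06, 10.82, 11.30 and 11.21 in OIL glands, a difference of 0.29 in batch 1 and -0.81 in batch 2. Both genes were above OIL in batch 1 and below it in batch 2. With both OIL groups of PND 21 as the reference, the medians were -0.23 for DEP, 0.02 for MPB and -0.16 for TCS.

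After PND1-20 exposure the genes lay close to OIL. The median was 0.14 in DEP glands (8 of 9 higher, against 42.1% of all genes), 0.09 in MPB glands (8 of 10 higher, 53.4%) and -0.03 in TCS glands (4 of 10 higher, 45.7%). Unadjusted p-values under 0.05 numbered 0, 2 and 0 (2.72%, 1.67% and 6.25% of all genes had one), with 0 of the endothelial genes called by limma and 0% of all genes for each chemical. The 95% intervals of single genes ran from -0.34 to 0.69 for DEP, -0.36 to 0.56 for MPB and -0.53 to 0.50 for TCS. Whether an effect differed between the gestational and the milk window was tested as an interaction. The effect after GD1-20 minus that after PND1-20 had a median of -0.44 for DEP, -0.19 for MPB and -0.29 for TCS. None passed in limma (0% of all genes for each), with 6, 2 and 3 genes at an unadjusted p under 0.05, against 7.68%, 2.67% and 4.85% of all genes.

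At PND 42, after PND21-41 exposure, DEP glands had 9 of 9 genes lower than OIL glands (49.1% of all genes), with a median of -0.15, 3 at an unadjusted p under 0.05 (2.26% of all genes), 0 passing in limma and 0.0148% of all genes called. Vwf measured 8.54, 8.54, 8.20, 8.37 and 8.41 in DEP glands, against 8.79, 8.61, 8.71, 8.60 and 8.85 in OIL glands. Egfl7 measured 9.10, 9.19, 9.12, 9.15 and 9.19 in DEP glands, against 9.65, 9.29, 9.36, 9.24 and 9.40 in OIL glands. For these 2 genes all DEP arrays lay below all OIL arrays, as for 0.473% of all genes, with limma differences of -0.30 (SE 0.11, adjusted p = 0.999) and -0.24 (SE 0.10, adjusted p = 0.999). MPB glands had 9 of 10 genes lower (56.1% of all genes), with a median of -0.21, which was -0.30 in batch 1 and 0.04 in batch 2; 3 had an unadjusted p under 0.05 (9.84% of all genes) and 0 passed in limma (0% of all genes). TCS glands had 8 of 10 genes higher (46.2% of all genes), with a median of 0.02. Limma called 0 of them and 0% of all genes, with 0 at an unadjusted p under 0.05, against 2% of all genes. The TCS arrays were all of batch 1, and this direction did not hold within that batch. There Cdh5, Flt1, Tek, Vwf, Esam and Egfl7 lay below OIL, down to -0.24 for Egfl7. Tie1, Emcn, Cldn5 and Robo4 lay above it, up to 0.17 for Cldn5.

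After PND42-62 exposure, MPB glands had 10 of 10 genes lower than OIL glands (55.3% of all genes), with a median of -0.25. Of these, 4 had an unadjusted p under 0.05, beside 17.8% of all genes, 0 passed in limma and 0.0055% of all genes were called. Egfl7 measured 9.43, 9.51, 9.24, 8.70 and 8.48 in MPB glands, against 10.03, 9.64, 9.76, 9.02 and 9.14 in OIL glands. Pooled over batches its groups overlapped, while within each batch all MPB arrays lay below all OIL arrays. The share of all genes that did so is not given here. The difference was -0.42 in batch 1 and -0.49 in batch 2, or -0.44 (SE 0.09, adjusted p = 0.145) in the joint limma fit. Without MPB PND42-62 replicate 2, 1 gene was called. DEP glands had 4 genes higher and 5 lower (42.4% and 57.6% of all genes), with a median of -0.02, and TCS glands had 3 higher and 7 lower (49.7% and 50.3%), with a median of -0.05; limma called 0 of them and 0% of all genes in either, with 0 and 1 genes at an unadjusted p under 0.05 (14.7% and 3.01% of all genes).

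MPB and TCS, measured in the same table, were also set against each other in the 4 windows. The medians of MPB minus TCS were 0.20 after GD1-20, 0.09 after PND1-20, -0.19 after PND21-41 and -0.18 after PND42-62. Limma called 0 of the 10 genes and 0% of all genes in each window, with 1 gene at an unadjusted p under 0.05 in each (from 3.11% to 10.8% of all genes). The 95% intervals of single genes after GD1-20 ran from -0.31 to 0.63. In batch 1 arrays alone 3 genes were called there, Tek (0.52), Tie1 (0.35) and Robo4 (0.63; limma, adjusted p = 0.0268, 0.0347 and 0.037). In batch 2 arrays alone their differences were -0.16, 0.22 and -0.40, so the direction held in both batches for Tie1 only. The share of all genes called in that batch 1 fit is not given here.

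**Figure D3:**
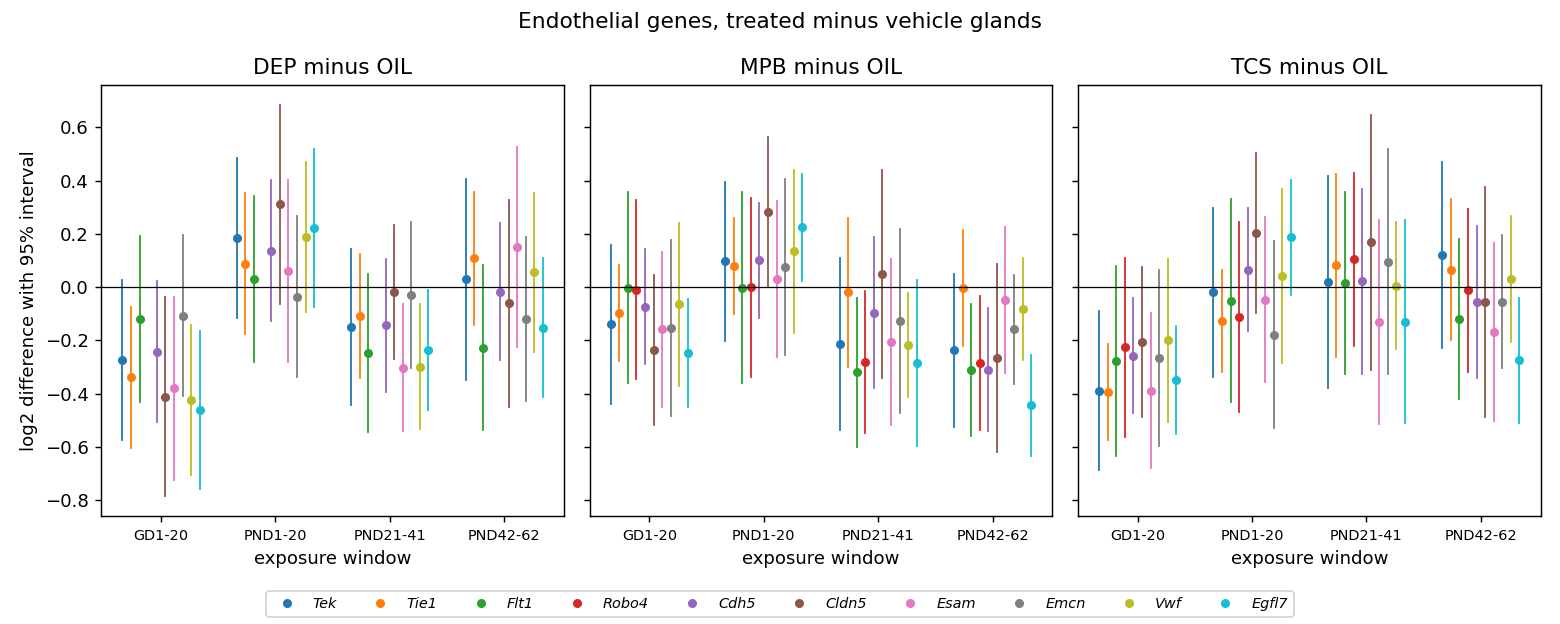
Log2 difference of each endothelial gene from OIL of the same window in DEP, MPB and TCS glands, for the 4 short windows. Each gene is 1 point with its confidence interval from limma, and a line marks 0. After GD1-20 all points lie below 0 with medians of -0.34, -0.12 and -0.27, after PND1-20 they lie on both sides of 0, and no point passed the adjusted test.

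The last comparison was TCS against OIL given from PND 1 to 145, in glands taken at the end of lactation. TCS glands had 9 of 10 genes higher than OIL glands, against 52.3% of all genes, with a median of 0.46; the exception was Flt1 (-0.21). Of the 10, 6 had an unadjusted p under 0.05, against 12.9% of all genes, but 0 passed after adjustment in limma, with a lowest adjusted p of 0.297, and 0% of all genes did. Tek measured 9.28, 9.40 and 9.53 in TCS glands, against 8.63, 8.96 and 8.70 in OIL glands, a limma difference of 0.64 with a 95% interval from 0.32 to 0.96. Emcn measured 9.98, 9.38 and 10.14 in TCS glands, against 8.83, 9.23 and 8.99 in OIL glands, with a difference of 0.82. Cdh5 measured 10.38, 10.26 and 10.49 in TCS glands, against 9.79, 10.06 and 9.90 in OIL glands, with a difference of 0.46. For Tek, Tie1, Cdh5 and Emcn all 3 TCS arrays lay above all 3 OIL arrays, which held for 9.12% of all genes. The other differences were 0.74 for Esam, 0.58 for Cldn5, 0.46 for Tie1, 0.40 for Robo4, 0.35 for Egfl7 and 0.33 for Vwf.

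Markers of other cells moved with these values. In the lactation glands 14 of 16 white adipocyte markers were higher in TCS (median 0.75), with a score from -0.01 to 0.91 in TCS glands, against -0.53 to -0.23 in OIL glands. All 10 pericyte markers were higher too (median 0.58), with a score from -0.02 to 0.50 in TCS glands, against -0.50 to -0.11 in OIL glands. The luminal epithelium markers had a median of -0.47 and scores from -0.47 to 0.11 in TCS glands, against -0.03 to 0.55 in OIL glands. None of these markers passed the limma test, and their part in the endothelial values was not tested. Other marker lists are not given here for these glands. Without the OIL array of a high muscle score, the endothelial median was 0.47.

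**Figure D4:**
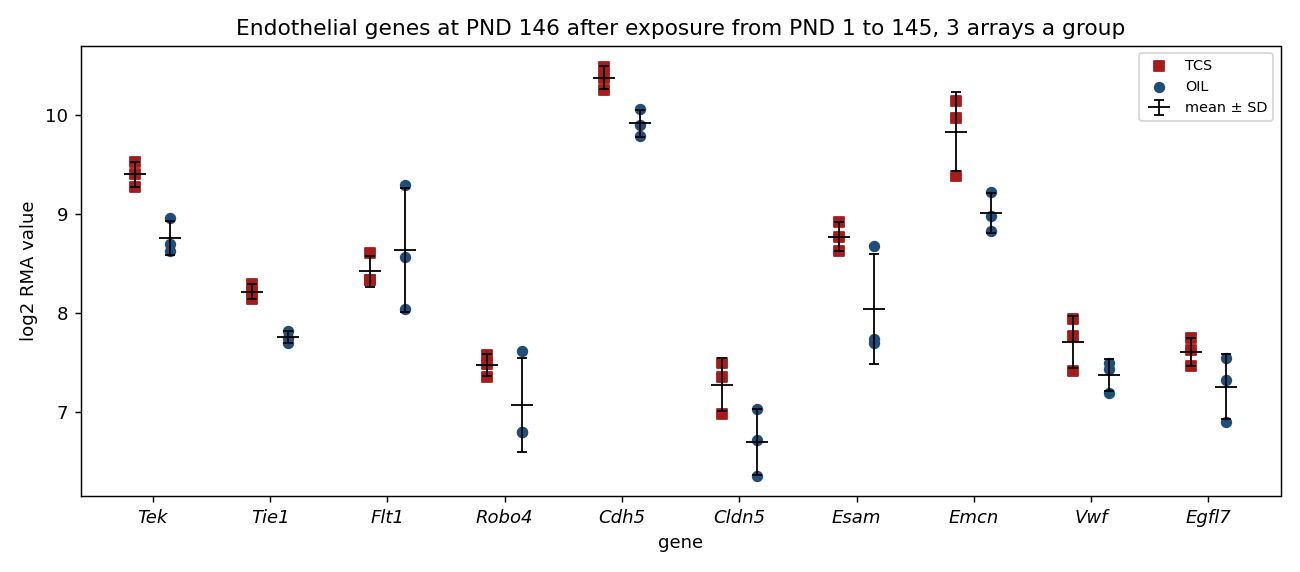
Log2 expression of the 10 genes at the end of lactation in TCS glands, drawn left of OIL glands; each point is 1 array and bars are means (n = 3 each). TCS points lie above OIL points for Tek, Tie1, Cdh5 and Emcn where the groups do not overlap, and Flt1 is the gene with a lower TCS mean.

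The 10 genes varied together across arrays once batch was taken out. In the 55 arrays the Pearson correlation of 45 pairs, with each group's mean subtracted, had a median of 0.459 and was positive in 36 pairs. It ran from -0.719 for Egfl7 with Cldn5 to 0.921 for Egfl7 with Esam, genes whose batch differences were of opposite and of equal sign. With the mean of each batch within each group subtracted instead, the median was 0.605 and 43 pairs were positive. The lowest was -0.0342 for Cldn5 with Emcn, the highest was 0.874 for Robo4 with Esam, and Egfl7 with Cldn5 came to 0.319. In the DEP and OIL table, where batches hardly differed, 35 of 36 pairs were positive with a median of 0.613 when group means were subtracted. Differences between groups and ages are thus taken out, while those in dissection between arrays are not. The correlations describe the arrays and are not a test. With batch means subtracted, the pericyte score correlated with the genes at a median of 0.754.

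Genes most like the 10 were found by correlation with the mean of the 10 over the 55 arrays after group means were subtracted: Mmrn2 (0.891), Tns1, Cytl1, Bcam, Ecm1, Ramp2, Sox17 and Hspa12b (0.846). By the means of 12 groups they were Dhh (0.988), Net1, Dusp1, Nfia, Mmrn2 (0.981), Cdh19, Gucy1a1 and Plcl1 (0.980). With batch also subtracted the list was led by Adgrl4 (0.908), Fhl5 and Adgrf5 and again held Ramp2 and Mmrn2. Mmrn2, a matrix protein of vessels, was thus present by all of these measures, and it was called lower at PND 42 in OIL glands (-0.23).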

How the data were processed

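Total RNA of caudal mammary glands was hybridised to Affymetrix arrays, and the authors deposited log2 values; the submitters' processing notes name Affymetrix Expression Console and the RMA method, and versions and genome build are not given in the sources used here. MPB, TCS and OIL were read from the series' value table (36685 clusters), DEP with OIL from the authors' table of those groups (7780 clusters, 6762 genes), and the lactation groups from the authors' table of those arrays. Values were compared only within a table. Of the clusters, 18511 had 1 gene symbol, 575 several and 17599 none listed; a gene with several clusters was read from the cluster of highest mean. Robo4's array gene ID was not matched in the RefSeq table, the other 9 were.

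For each comparison limma 3.58.1 (R 4.3.3; lmFit and eBayes, 2-sided) was fitted over all genes, with all groups of that age, or all short-window groups of that treatment for ages, and batch as a term (none for the lactation arrays). Adjusted p is Benjamini-Hochberg over all genes of a comparison, with a threshold of 0.05. The PND 21 level in age comparisons is the mean of both PND 21 groups. The number of arrays limits the precision. The fit was also run on simulated arrays with independent genes and no batch shift. The real arrays differ in both, so that run is not a measure of performance here. The genes, marker lists and tests were chosen with earlier results of these data known. All 10 genes, or the 9 held in the DEP and OIL table, were tested and counted in every comparison, while values of single genes are given for some of them only. Of other vascular lists, up to 5 called genes per direction of largest difference could be named. The 8 genes of highest correlation are given as most like. Genes called in all 4 treatments were named after their values were seen. Alternatives varied the batch term, batches, fit, dim filter, centring, cluster choice, covariates, tables and replicates.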

Additional observations from a re-analysis of the deposited data

Results flagged for a closer look

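Single arrays stood apart from the rest of their group for 15 of 136 combinations of gene and group of 4 or 5 arrays, where chance gives about 1 in 20; in 11 of the 15 the array was the highest of its group. Each had a gap to its nearest neighbour that took up most of the range of its group. In MPB glands these were Flt1 in PND1-20 replicate 1 (10.30), Flt1 (9.86) and Emcn (11.33) in PND21-41 replicate 4, Tie1 in PND42-62 replicate 5 (9.55) and, as the lowest of its group, Vwf in PND42-62 replicate 4 (8.005). In TCS glands PND1-20 replicate 4 had the highest Cdh5 (11.58) and the lowest Esam (9.62) of its group, and it was the group's 1 array of batch 2. In DEP glands they were Emcn in GD1-20 replicate 2 (11.15), PND1-20 replicate 4 (11.03) and PND42-62 replicate 4 (11.10), and Tie1, as the lowest, in PND21-41 replicate 5 (9.004). In OIL glands they were Robo4 in GD1-20 replicate 2 (9.02), Tek (10.54) and Emcn (11.08) in PND21-41 replicate 4 and, as the lowest, Flt1 in GD1-20 replicate 1 (9.58). MPB PND21-41 replicate 4, OIL PND21-41 replicate 4 and DEP PND42-62 replicate 4 also had skeletal muscle scores above 1. Emcn accounted for 5 of the 15, each time as the highest value of its group.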

How the results depend on the processing

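No called difference of a gene changed sign under any alternative run: of 692 recomputed values, 179 lost the call with the same direction, and of 5310 values of uncalled differences, 16 gained it and 374 had the opposite sign. The counts of called genes moved as follows for PND 42 against PND 21. In OIL glands (7) the count was 3 without the batch term, 1 in batch 2 alone and 1 against PND1-20 glands alone. In DEP glands (8) it was 2 in batch 1, 0 in batch 2, 0 with tissue scores as covariates and 0 against GD1-20 alone, while the median of -0.45 lay from -0.52 to -0.38 over the 11 alternatives and was -0.42 with the tissue scores. In MPB glands (7) it was 1 without the batch term, 0 in batch 2, 4 with arrays centred on their medians, 3 against GD1-20 alone and 0 against PND1-20 alone. In TCS glands (4) it was 2 without the batch term, 2 with tissue scores as covariates and 2 against GD1-20 alone. MPB against TCS after GD1-20 gave 3 in batch 1. Single batches hold fewer arrays. The share of all genes called in each alternative fit is not given here, and the cause of these changes was not otherwise tested. Medians that moved by more than the replicate spread were, in batch 2 alone, -0.49 for MPB against OIL after GD1-20, 0.04 for MPB PND21-41, 0.08 for TCS PND1-20, 0.19 for DEP PND42-62, -0.50 and -0.62 for the MPB and DEP effects of GD1-20 minus PND1-20, -0.10 for MPB PND 42 against PND 21 and 0.29 for DEP PND 63 against PND 42. With tissue scores as covariates they were 0.12 for TCS PND1-20, -0.35 for TCS PND42-62, -0.47 for DEP PND42-62 and 0.13 for MPB against TCS PND42-62. With both OIL groups of PND 21 as the reference they were -0.14 for TCS PND1-20 and -0.01 for DEP PND1-20, and for OIL PND 42 they were -0.49 against GD1-20 and -0.20 against PND1-20. Leaving out 1 array at a time gave 6 to 7 called genes for PND 42 against PND 21 in OIL glands, 4 to 8 in DEP, 1 to 7 in MPB and 1 to 5 in TCS glands, 0 to 1 for MPB against OIL PND42-62 and for OIL PND 63 against PND 42, and 0 in all other comparisons; medians over these runs had ranges of -0.20 to -0.03 (MPB against OIL GD1-20), 0.04 to 0.16 (MPB against OIL PND1-20), -0.31 to -0.11 (MPB against OIL PND21-41), -0.32 to -0.17 (MPB against OIL PND42-62), -0.37 to -0.23 (TCS against OIL GD1-20), -0.08 to 0.01 (TCS against OIL PND1-20), -0.00459 to 0.09 (TCS against OIL PND21-41), -0.13 to 0.01 (TCS against OIL PND42-62), 0.18 to 0.31 (OIL GD1-20 against OIL PND1-20), -0.29 to -0.11 (MPB effect GD1-20 minus PND1-20), -0.35 to -0.24 (TCS effect GD1-20 minus PND1-20), 0.09 to 0.29 (MPB against TCS GD1-20), 0.01 to 0.15 (MPB against TCS PND1-20), -0.24 to -0.07 (MPB against TCS PND21-41), -0.22 to -0.13 (MPB against TCS PND42-62), -0.45 to -0.23 (DEP against OIL GD1-20), 0.09 to 0.16 (DEP against OIL PND1-20), -0.23 to -0.09 (DEP against OIL PND21-41), -0.08 to 0.06 (DEP against OIL PND42-62), 0.41 to 0.51 (TCS against OIL PND1-145), -0.57 to -0.35 (DEP effect GD1-20 minus PND1-20), -0.38 to -0.32 (OIL PND 42 against PND 21), -0.07 to 0.02 (OIL PND 63 against PND 42), -0.52 to -0.39 (DEP PND 42 against PND 21), -0.05 to 0.14 (DEP PND 63 against PND 42), -0.62 to -0.43 (MPB PND 42 against PND 21), -0.20 to 0.02 (MPB PND 63 against PND 42), -0.31 to -0.24 (TCS PND 42 against PND 21) and -0.17 to -0.05 (TCS PND 63 against PND 42). Alternatives that left out muscle-rich arrays, used both OIL groups or 1 PND 21 group, used the authors' other tables for ages removed batch from correlations or ordered groups by batch 1 alone were chosen after seeing the data. No paired analysis was possible because the labels give no replicate numbers shared between groups. TCS PND21-41 and TCS PND42-62 had no batch 2 arrays, so no batch 2 values were computed for them. The number of arrays per group limits the precision.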
